A study of Mus musculus with 18 samples.

Results

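The genes described here make, move and control cholesterol: the enzymes of the mevalonate and sterol pathway, the control circuit of the transcription factor SREBP2, and genes that carry or store cholesterol. The set was given as 29 mouse gene symbols ordered by pathway step, and was chosen with earlier results of these data known. Of these, 26 had at least 1 probe set listed with that single symbol, out of 19938 genes measured in all, and the probe set with the highest mean was used where there were several. Acat2, a thiolase of the first step, and Soat1, the acyltransferase that stores cholesterol as esters, had no probe set listed with a single symbol. Mbtps2, the site-2 protease of SREBP activation, lay only on a probe set shared with Yy2. These 3 genes have no values below.

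The arrays measured RNA of mouse bone marrow derived dendritic cells, labelled either Ubc9 WT or Ubc9 KO. The labels name the knockout by the enzyme that conjugates SUMO to proteins. Each genotype was left unstimulated or given LPS, a bacterial cell wall component that activates dendritic cells, at 10 ng/ml for 1 h or 6 h. Each of the 6 groups held 3 arrays, 18 in all. All 6 groups, wild type included, share a culture of 10 days in RPMI medium with 10% FBS and 20 ng/ml GM-CSF, and 100 nM 4-hydroxytamoxifen given on day 6. Which allele, Cre driver, strain, age or sex of animal was used is not given in the sources used here. No check of the genotype labels was made on the arrays. The replicates are called biological, but nothing says that they came from separate animals, so p-values measure the spread between these arrays.

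Arrays of one group correlated at 0.983 to 0.996 over genes. Dendritic cell markers (10 genes) averaged 8.17 to 9.06 on the log2 scale over the 18 arrays, and macrophage markers (13 of 14 measured) averaged 7.93 to 9.25. Markers of B cells, T and NK cells, and mast cells and basophils averaged 3.61 to 4.32, erythroid markers 4.43 to 4.91, neutrophil and granule markers 5.18 to 5.81, and stromal markers 5.41 to 6.09. The arrays give log2 signals with no true zero, so no marker can be called absent. Levels of different probe sets cannot be set against each other, so these ranges do not rank the cell types.

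Cholesterol is built from acetyl-CoA. The mevalonate pathway yields farnesyl diphosphate, which is joined to squalene, closed to lanosterol and then trimmed to cholesterol, with branches that feed protein prenylation and dolichol. When sterols are low, SCAP escorts SREBP2 from the endoplasmic reticulum to the Golgi, where the site-1 and site-2 proteases release its transcription factor part, which switches on most genes of the pathway. When sterols are high, INSIG proteins hold SCAP and SREBP2 back. In myeloid cells the pathway is known to be tied to inflammatory signalling, and type I interferon is known to lower sterol synthesis in macrophages.

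SREBP2 binds sterol regulatory elements, usually beside sites for NF-Y (CCAAT) and SP1 (GC boxes). Promoter windows of 300 bases, 250 before to 50 after the start, were taken from RefSeq (GRCm38.p6), where 21 of the 26 measured genes had an entry. Those of 4 synthesis genes are printed because they represent successive stages of the pathway and their genes were all called lower in knockout cells after 6 h of LPS. Capitals mark the element TCACNCCAC and CCAAT on either strand (ATTGG on the other).
Hmgcs1: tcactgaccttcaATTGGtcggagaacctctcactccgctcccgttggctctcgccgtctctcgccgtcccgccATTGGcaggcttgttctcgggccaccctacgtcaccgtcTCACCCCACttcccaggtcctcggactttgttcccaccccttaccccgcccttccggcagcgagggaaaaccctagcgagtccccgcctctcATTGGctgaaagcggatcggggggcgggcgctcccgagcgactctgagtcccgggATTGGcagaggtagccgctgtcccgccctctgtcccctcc
Mvd: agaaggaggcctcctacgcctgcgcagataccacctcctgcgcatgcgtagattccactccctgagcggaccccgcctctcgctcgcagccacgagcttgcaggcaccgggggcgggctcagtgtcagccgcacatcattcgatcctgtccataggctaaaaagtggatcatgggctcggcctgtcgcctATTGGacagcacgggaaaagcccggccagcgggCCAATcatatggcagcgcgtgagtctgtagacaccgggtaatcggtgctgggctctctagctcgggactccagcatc
Lss: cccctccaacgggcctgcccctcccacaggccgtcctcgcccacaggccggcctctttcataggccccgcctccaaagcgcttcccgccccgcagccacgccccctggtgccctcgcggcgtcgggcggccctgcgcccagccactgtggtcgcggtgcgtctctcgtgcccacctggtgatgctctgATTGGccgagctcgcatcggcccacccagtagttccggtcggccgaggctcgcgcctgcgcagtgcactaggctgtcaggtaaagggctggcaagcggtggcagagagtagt
Cyp51: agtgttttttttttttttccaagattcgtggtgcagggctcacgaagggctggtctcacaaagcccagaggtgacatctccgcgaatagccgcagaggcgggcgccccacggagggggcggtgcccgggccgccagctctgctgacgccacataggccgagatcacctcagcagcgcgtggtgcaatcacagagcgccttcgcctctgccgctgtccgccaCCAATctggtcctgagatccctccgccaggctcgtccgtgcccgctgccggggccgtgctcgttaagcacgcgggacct
The windows lie at chr13:119690101-119690400 on the plus strand for Hmgcs1, chr8:122443373-122443672 on the minus strand for Mvd, chr10:76531355-76531654 on the plus strand for Lss and chr5:4104648-4104947 on the minus strand for Cyp51. Each starts upstream of its gene and runs into the first transcribed bases.

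Both strands of every window were searched. The element TCACNCCAC was found in 1 of the 21 genes, Hmgcs1, as TCACCCCAC at -137 to -129 from the start, against 1.436% of 27025 genes in the RefSeq table. CCAAT was found in 19 of 21 genes (90.476%) against 41.058% of all genes. The GC box GGGCGG was likewise found in 19 of 21 against 38.202%. Scap and Mbtps1 had no CCAAT in their windows. None of the matches in the members' windows overlapped a match of another of these motifs. A match describes letters in these windows and is not a measured binding site.

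Cholesterol genes were called lower in knockout cells at every time, and the calls covered most of the set at 6 h but not before. Without LPS, 5 of 26 genes were called lower and 0 higher (adjusted p under 0.05, limma), against 0.642% of all 19938 genes called lower. They were Hmgcs1, Mvd, Sqle, Lss and Stard4. After 1 h of LPS 11 genes were called lower and 0 higher, against 0.687% of all genes. After 6 h 20 were called lower and 0 higher, against 18.8% of all genes, so that background was far larger. The 5 genes called without LPS were called at all 3 times. The median log2 difference, knockout minus wild type, was -0.66, -0.83 and -1.09 at the 3 times, and that of all genes was 0.00, -0.04 and 0.04. In bulk RNA, fewer cells of a type that holds these transcripts and less of the transcript per cell cannot be told apart.

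All 3 knockout arrays read below all 3 wild-type arrays for 19 genes without LPS (6.54% of all genes did), for 19 genes at 1 h (12%) and for 22 genes at 6 h (24.8%). Idi1, Ggps1, Scap and Insig2 overlapped at 6 h. At least a 2-fold lower mean was seen for 7 genes without LPS, 11 at 1 h and 15 at 6 h. The share of all genes with such a mean was not counted, so these 2-fold counts describe the members only. No measured member was called higher in knockout cells at any time.

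The counts before 6 h rested on few arrays. Without LPS the count of 5 dropped to 1 without knockout array 2, knockout array 3 or wild-type array 3 of the unstimulated groups, and to 2 without wild-type array 2. It rose to 8 without unstimulated knockout array 1 or 6 h knockout array 3, and to 11 without 6 h knockout array 1. At 1 h the count of 11 dropped to 3 without knockout array 3 or wild-type array 2 of that time, to 5 without knockout array 2 or wild-type array 3, and to 7 without wild-type array 1. At 6 h it stayed at 17 to 21 whichever array was left out. Arrays of one genotype that carry the same replicate number deviated together, and a fit with that number as a random replicate block called 11 genes lower without LPS (0.818% of all genes). The 6 added genes were Idi1, Fdft1, Cyp51, Nsdhl, Hsd17b7 and Srebf2.

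The 6 measured genes of the mevalonate pathway were all below wild type at each time. Of them 2 were called lower without LPS, 4 at 1 h and 5 at 6 h, against 0.642%, 0.687% and 18.8% of all genes. Mvd encodes the decarboxylase that makes isopentenyl diphosphate. Its log2 signal in wild-type arrays 1 to 3 was 8.72, 8.75 and 9.05 without LPS, 8.55, 8.92 and 8.85 at 1 h, and 9.0, 8.91 and 8.83 at 6 h. The knockout arrays read 7.88, 7.64 and 7.53, then 7.51, 7.37 and 7.25, then 6.98, 6.72 and 6.78. Every knockout array was below every wild-type array, and the 3 knockout groups did not overlap each other. The difference was -1.15 ± 0.13 (SE) without LPS (2.23-fold lower, adjusted p = 6.5e-05), -1.40 ± 0.13 at 1 h (adjusted p = 7.79e-06) and -2.09 ± 0.13 at 6 h (4.24-fold lower, adjusted p = 1.88e-08). Mvd was called at all 3 times in all 27 alternative fits run, the 18 that left out 1 array among them.

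Hmgcs1 encodes the synthase that makes HMG-CoA. Wild-type arrays read 9.02, 9.58 and 9.31 without LPS, 9.02, 9.55 and 9.37 at 1 h, and 9.26, 9.39 and 9.08 at 6 h. Knockout arrays read 8.62, 8.0 and 7.83, then 8.54, 8.13 and 7.79, then 8.26, 7.46 and 7.21. The genotypes did not overlap, and array 1 was the highest knockout array each time. The difference was -1.15 ± 0.26 (adjusted p = 0.0271), -1.16 ± 0.26 (adjusted p = 0.0259) and -1.60 ± 0.26 (3.03-fold lower, adjusted p = 2.41e-04). Leaving out unstimulated array 2 or 3 of either genotype lost the call without LPS (adjusted p at most 0.135). At 1 h it was likewise lost without array 2 or 3 of either genotype (at most 0.138).

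Fdps encodes farnesyl diphosphate synthase, the branch point to sterols and prenyl groups. Wild-type signals were 8.72, 9.03 and 8.90 without LPS, 8.84, 9.02 and 8.94 at 1 h, and 9.40, 9.12 and 9.21 at 6 h. Knockout signals were 8.40, 8.28 and 7.75, then 8.03, 7.45 and 6.79, then 7.96, 7.15 and 6.43. The genotypes stood closest together without LPS, and within the knockout array 3 was lowest at each time. The difference was -0.74 ± 0.31 without LPS (adjusted p = 0.326, not called), -1.51 ± 0.31 at 1 h (2.86-fold lower, adjusted p = 0.0152) and -2.07 ± 0.31 at 6 h (4.19-fold lower, adjusted p = 1.24e-04). The 1 h call was lost without array 2 or 3 of either genotype at that time (adjusted p at most 0.0915).

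The kinases Mvk and Pmvk, which phosphorylate mevalonate in turn, differed less. Mvk was -0.51 ± 0.19 without LPS (not called), -0.77 ± 0.19 at 1 h (adjusted p = 0.0391) and -0.80 ± 0.19 at 6 h (adjusted p = 0.00386). The 1 h call of Mvk held in 5 of the 18 fits that left out 1 array, so it rests on the full set of arrays. Pmvk was -0.48 ± 0.16, -0.57 ± 0.16 and -0.98 ± 0.16, and only the 6 h value was called (1.98-fold lower, adjusted p = 1.71e-04).

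Idi1, the isomerase that balances the 5-carbon units, was described here after its values were seen. Its mean was below wild type like most of the set, but it rose after 6 h of LPS in knockout, where most of the set fell. Wild-type arrays read 8.48, 8.93 and 8.66 without LPS, 8.48, 9.23 and 9.0 at 1 h, and 9.10, 9.38 and 8.88 at 6 h. Knockout arrays read 7.79, 7.31 and 6.21, then 8.14, 7.61 and 6.95, then 9.20, 8.12 and 6.96. At 6 h knockout array 1 lay within the wild-type range while array 3 lay far below it. The difference was -1.59 ± 0.46 without LPS, -1.34 ± 0.46 at 1 h and -1.02 ± 0.46 at 6 h, and none was called (adjusted p = 0.0947, 0.2 and 0.109). With the random replicate block the difference without LPS was called (adjusted p = 0.0312). A second probe set of Idi1 gave -1.70, -1.37 and -0.98.

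All 3 genes from squalene to lanosterol were below wild type at each time, and Sqle had the largest difference of the 26 genes at 6 h. Sqle encodes squalene epoxidase, a rate-controlling step. Wild-type arrays read 9.11, 9.48 and 9.48 without LPS, 9.15, 9.78 and 9.54 at 1 h, and 9.47, 9.62 and 9.25 at 6 h. Knockout arrays read 8.27, 7.91 and 7.12, then 8.12, 7.55 and 7.08, then 7.35, 6.19 and 5.85. No knockout array reached a wild-type array, and the 6 h knockout arrays 2 and 3 were the lowest of the 18. Sqle was -1.59 ± 0.35 without LPS (3.01-fold lower, adjusted p = 0.0212), -1.91 ± 0.35 at 1 h (adjusted p = 0.00579) and -2.98 ± 0.35 at 6 h (7.9-fold lower, adjusted p = 1.08e-05). The call without LPS was lost when unstimulated array 2 or 3 of either genotype was left out (adjusted p at most 0.117).

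Lss encodes lanosterol synthase, which closes the sterol rings. Its wild-type signals were 6.89, 7.20 and 7.31 without LPS, 6.79, 7.48 and 7.18 at 1 h, and 7.09, 7.12 and 6.86 at 6 h. Its knockout signals were 6.41, 6.25 and 6.14, then 6.30, 6.16 and 5.84, then 5.49, 4.98 and 4.77. The genotypes were apart at each time, and the 6 h knockout arrays lay below all others. The difference was -0.87 ± 0.19 (adjusted p = 0.0232), -1.05 ± 0.19 (adjusted p = 0.00595) and -1.94 ± 0.19 (3.84-fold lower, adjusted p = 2.29e-06). As with Sqle, the call without LPS was lost without unstimulated array 2 or 3 of either genotype (adjusted p at most 0.1035).

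Fdft1, squalene synthase, commits farnesyl diphosphate to sterols. In wild type it read 9.85, 9.96 and 10.24 without LPS, 9.97, 10.42 and 10.35 at 1 h, and 10.23, 10.47 and 10.18 at 6 h. In knockout it read 9.54, 9.03 and 8.60, then 9.43, 9.10 and 8.84, then 9.0, 7.96 and 7.74. The genotypes did not overlap at any time. The difference was -0.96 ± 0.28 without LPS (adjusted p = 0.0933, and 0.039 with the random replicate block), -1.12 ± 0.28 at 1 h (adjusted p = 0.0453) and -2.06 ± 0.28 at 6 h (4.17-fold lower, adjusted p = 4.26e-05). The 1 h call held in 5 of the 18 fits that left out 1 array and was lost when arrays were centred on their medians (adjusted p = 0.0558). A second probe set of Fdft1 gave -1.02, -1.34 and -2.28.

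**Figure D1:**
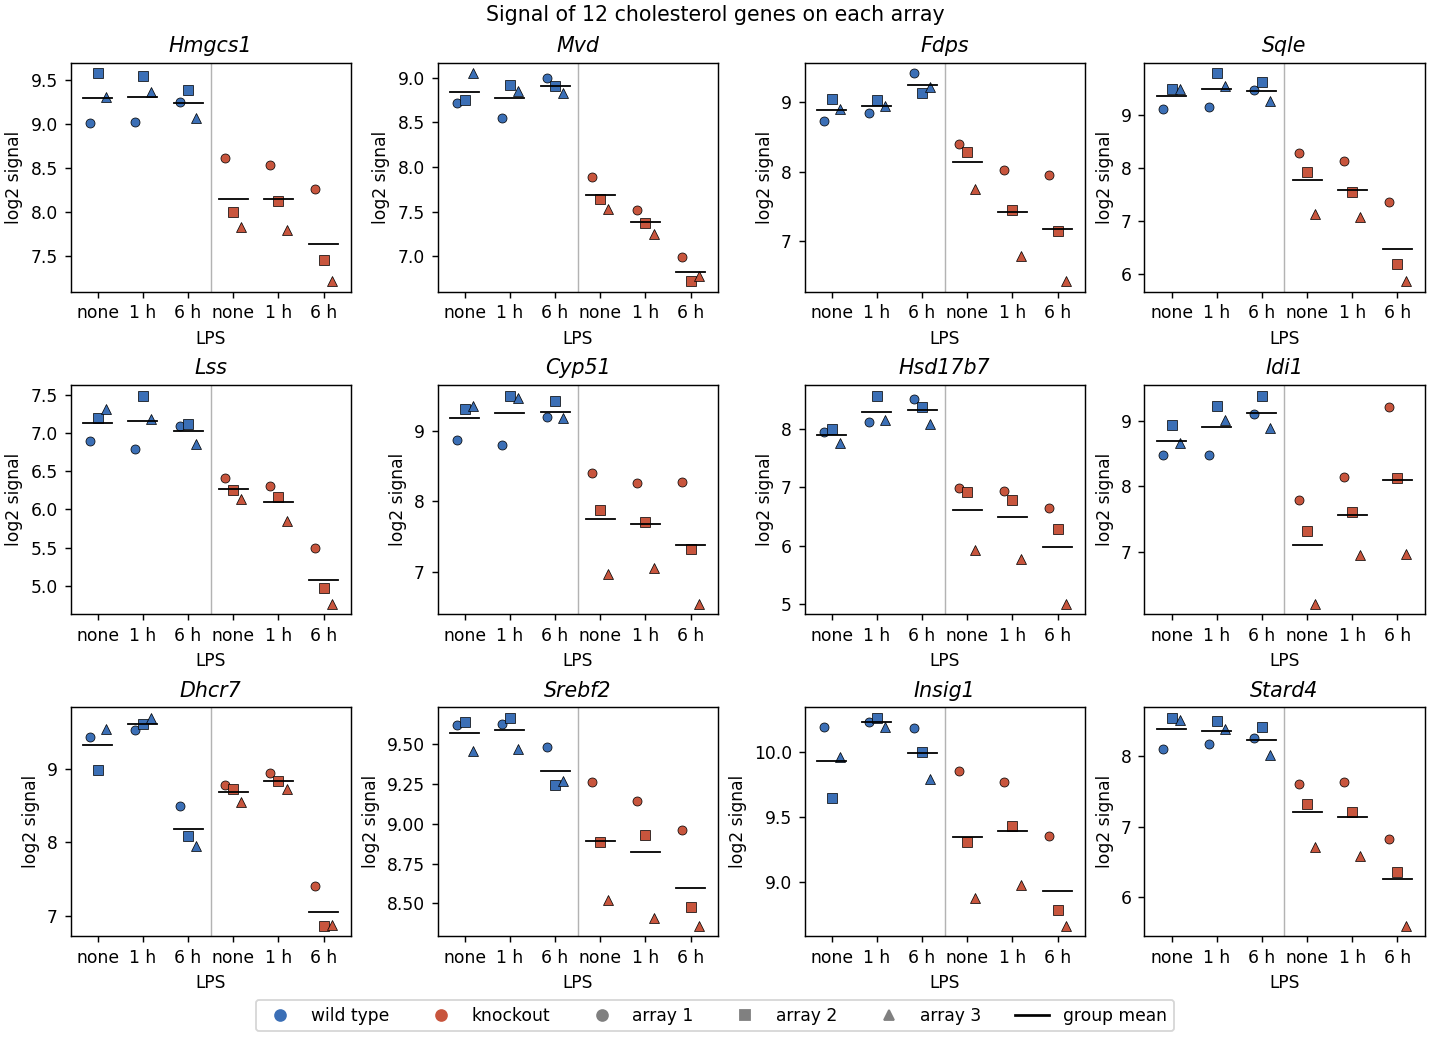
Log2 signal (vertical axes, one scale per gene) of 12 cholesterol genes on each of the 18 arrays, by LPS time, with wild type in blue, knockout in red, marker shape for the array number and a line for the group mean of 3. Knockout arrays lie below wild-type arrays for most genes, array 3 is often the lowest knockout array, Idi1 of knockout array 1 lies among the wild-type arrays at 6 h, and Dhcr7 drops at 6 h in both genotypes.

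The 8 enzymes that turn lanosterol into cholesterol were all below wild type at each time. Of these 0 were called without LPS, 3 at 1 h (Nsdhl, Hsd17b7 and Dhcr7) and all 8 at 6 h. The shares of all genes called lower were 0.642%, 0.687% and 18.8%. Hsd17b7 encodes the keto reductase of the demethylation complex. In wild type it read 7.94, 8.0 and 7.75 without LPS, 8.13, 8.57 and 8.15 at 1 h, and 8.52, 8.37 and 8.08 at 6 h. In knockout it read 6.99, 6.92 and 5.94, then 6.93, 6.78 and 5.78, then 6.65, 6.28 and 5.01. Knockout array 3 stood about a full log2 unit or more below its fellows at each time. The difference was -1.28 ± 0.37 without LPS (adjusted p = 0.0933, and 0.0278 with the random replicate block), -1.79 ± 0.37 at 1 h (adjusted p = 0.0151) and -2.34 ± 0.37 at 6 h (5.06-fold lower, adjusted p = 1.77e-04). Without knockout array 3 or wild-type array 2 of the 1 h groups, the 1 h call was lost (adjusted p = 0.0915 and 0.0875).

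Msmo1 encodes the methylsterol oxidase of the same complex. In wild type it read 9.97, 10.18 and 10.22 without LPS, 9.89, 10.28 and 10.32 at 1 h, and 10.15, 10.35 and 10.01 at 6 h. In knockout it read 9.63, 8.89 and 8.89, then 9.69, 8.93 and 8.79, then 9.05, 7.94 and 7.62. Knockout array 1 lay nearest to wild type at each time. The difference was -0.98 ± 0.31 (not called), -1.03 ± 0.31 (adjusted p = 0.113, and 0.0411 with the random replicate block) and -1.97 ± 0.31 at 6 h (3.9-fold lower, adjusted p = 1.53e-04).

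Cyp51, the lanosterol demethylase, opens this stretch. Wild-type arrays gave 8.87, 9.31 and 9.35 without LPS, 8.80, 9.49 and 9.46 at 1 h, and 9.19, 9.42 and 9.18 at 6 h. Knockout arrays gave 8.40, 7.87 and 6.98, then 8.26, 7.71 and 7.05, then 8.27, 7.33 and 6.56. The knockout arrays spread over more than a log2 unit at each time, in the order array 1, 2, 3. Cyp51 was -1.42 ± 0.40 without LPS (adjusted p = 0.0799) and -1.58 ± 0.40 at 1 h (adjusted p = 0.0508), neither of them called, and both were called with the random replicate block (adjusted p = 0.0222 and 0.0115). At 6 h it was -1.88 ± 0.40 (3.67-fold lower, adjusted p = 0.00198).

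The other enzymes of this stretch differed from 1.25-fold to 3.14-fold at 6 h. Sc5d, the desaturase, was -1.65 ± 0.32 (adjusted p = 9.74e-04), and Nsdhl, a sterol dehydrogenase, was -1.11 ± 0.17 (adjusted p = 1.03e-04). Nsdhl was also called at 1 h (-0.83 ± 0.17, adjusted p = 0.0115), a call lost without knockout array 3 or wild-type array 2 of that time (adjusted p = 0.0726 and 0.0691), and without LPS only with the random replicate block (adjusted p = 0.0383). Tm7sf2, a sterol reductase, was -0.86 ± 0.16 at 6 h (adjusted p = 8.8e-04). Ebp, the sterol isomerase, had the smallest called difference, -0.32 ± 0.10 at 6 h (adjusted p = 0.0228), and lost the call when array 2 or 3 of the 6 h knockout, or array 1 or 2 of the 6 h wild type, was left out (adjusted p at most 0.0852).

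Dhcr7, the last reductase, was chosen for its values because it responded to LPS in both genotypes. Wild-type arrays read 9.43, 8.98 and 9.54 without LPS, 9.53, 9.61 and 9.70 at 1 h, and 8.49, 8.09 and 7.95 at 6 h. Knockout arrays read 8.79, 8.72 and 8.55, then 8.95, 8.83 and 8.72, then 7.41, 6.86 and 6.87. Within each genotype the 6 h arrays did not overlap the earlier ones, and the knockout arrays were below wild type at each time. The genotype difference was -0.63 ± 0.17 without LPS (adjusted p = 0.064), -0.78 ± 0.17 at 1 h (adjusted p = 0.02) and -1.13 ± 0.17 at 6 h (2.19-fold lower, adjusted p = 1.12e-04). The 1 h call held in 13 of the 18 fits that left out 1 array and was lost without any 1 h array other than knockout array 1 (adjusted p at most 0.103).

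The 2 isoprenoid branch genes were not called between genotypes at any time. Ggps1, which makes geranylgeranyl diphosphate for prenylation, differed by 0.04 ± 0.16, -0.02 ± 0.16 and 0.10 ± 0.16. Dhdds, a subunit of the dolichol-making prenyltransferase, read 8.29, 7.48 and 8.43 in wild type without LPS, 8.21, 8.21 and 8.13 at 1 h, and 8.20, 8.17 and 7.96 at 6 h. In knockout Dhdds read 8.27, 8.17 and 8.26, then 8.24, 8.10 and 8.28, then 7.65, 7.87 and 7.62. Its groups overlapped until 6 h, when the knockout arrays were the lower ones. The Dhdds difference was 0.17 ± 0.17, 0.03 ± 0.17 and -0.40 ± 0.17 (adjusted p = 0.095 at 6 h).

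Of the 5 measured genes of the SREBP2 circuit, 0 were called without LPS or at 1 h and 3 were called lower at 6 h. Of all genes 0.642%, 0.687% and 18.8% were called lower at these times. Srebf2 encodes SREBP2 itself. Its wild-type arrays read 9.62, 9.64 and 9.46 without LPS, 9.63, 9.67 and 9.47 at 1 h, and 9.48, 9.25 and 9.27 at 6 h. Its knockout arrays read 9.27, 8.89 and 8.52, then 9.14, 8.93 and 8.41, then 8.96, 8.48 and 8.36. All knockout arrays lay below all wild-type arrays of the same time. The difference stayed of like size, at -0.68 ± 0.20 without LPS (adjusted p = 0.0933), -0.76 ± 0.20 at 1 h (adjusted p = 0.057) and -0.73 ± 0.20 at 6 h (1.66-fold lower, adjusted p = 0.0101). With the random replicate block the first of these had an adjusted p of 0.0341 and the second 0.0173. Without 6 h knockout array 3 the 6 h call was lost (adjusted p = 0.0579).

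Insig1, the sterol-regulated anchor of SCAP and itself an SREBP2 target, showed more spread. In wild type it read 10.19, 9.65 and 9.97 without LPS, 10.23, 10.26 and 10.19 at 1 h, and 10.19, 10.00 and 9.79 at 6 h. In knockout it read 9.85, 9.31 and 8.88, then 9.77, 9.43 and 8.97, then 9.35, 8.78 and 8.66. The genotypes overlapped without LPS and were apart at 1 h and 6 h. The difference was -0.59 ± 0.24 (not called), -0.84 ± 0.24 (adjusted p = 0.0945, and 0.0371 with the random replicate block) and -1.06 ± 0.24 at 6 h (2.09-fold lower, adjusted p = 0.00317). Its paralog Insig2, known to be less dependent on sterols, differed by 0.09 ± 0.09, -0.04 ± 0.09 and -0.09 ± 0.09 and was not called.

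Mbtps1, the site-1 protease, read 7.86, 8.07 and 7.95 in wild type without LPS, 7.85, 7.76 and 7.82 at 1 h, and 8.0, 7.70 and 7.67 at 6 h. Its knockout arrays read 7.95, 7.74 and 7.44, then 7.92, 7.68 and 7.42, then 7.57, 7.38 and 6.97. The groups overlapped until 6 h, when the difference was -0.48 ± 0.16 (adjusted p = 0.0341). That call was lost without 6 h array 2 or 3 of the knockout or array 1 or 2 of the wild type (adjusted p at most 0.195). Scap, the escort protein, read 8.25, 8.39 and 8.26 in wild type without LPS, 8.46, 8.33 and 8.30 at 1 h, and 8.17, 7.86 and 8.13 at 6 h. In knockout Scap read 8.48, 8.43 and 8.21, then 8.27, 8.28 and 8.18, then 8.14, 7.92 and 8.02. Scap did not separate the genotypes at 6 h, with differences of 0.07 ± 0.10, -0.12 ± 0.10 and -0.03 ± 0.10.

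Stard4 and Npc1 both move cholesterol inside the cell, Stard4 through the cytosol and Npc1 out of lysosomes. Stard4, a sterol-responsive gene, read 8.09, 8.54 and 8.51 in wild type without LPS, 8.17, 8.50 and 8.39 at 1 h, and 8.25, 8.42 and 8.02 at 6 h. Its knockout arrays read 7.61, 7.32 and 6.71, then 7.63, 7.20 and 6.58, then 6.83, 6.35 and 5.59. The genotypes did not overlap. The difference was -1.17 ± 0.29 without LPS (adjusted p = 0.0466), -1.22 ± 0.29 at 1 h (adjusted p = 0.0393) and -1.97 ± 0.29 at 6 h (3.92-fold lower, adjusted p = 1.07e-04). Before 6 h the call was marginal, holding in 5 and 6 of the 18 fits that left out 1 array. Npc1 read 10.59, 10.32 and 10.55 in wild type without LPS, 10.51, 10.45 and 10.46 at 1 h, and 10.16, 10.09 and 9.98 at 6 h. In knockout Npc1 read 10.46, 10.15 and 10.27, then 10.52, 10.19 and 10.27, then 9.93, 9.74 and 9.86. Npc1 was lower at 6 h than before in both genotypes, and its genotype difference was -0.19 ± 0.11, -0.15 ± 0.11 and -0.24 ± 0.11, never called.

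**Figure D2:**
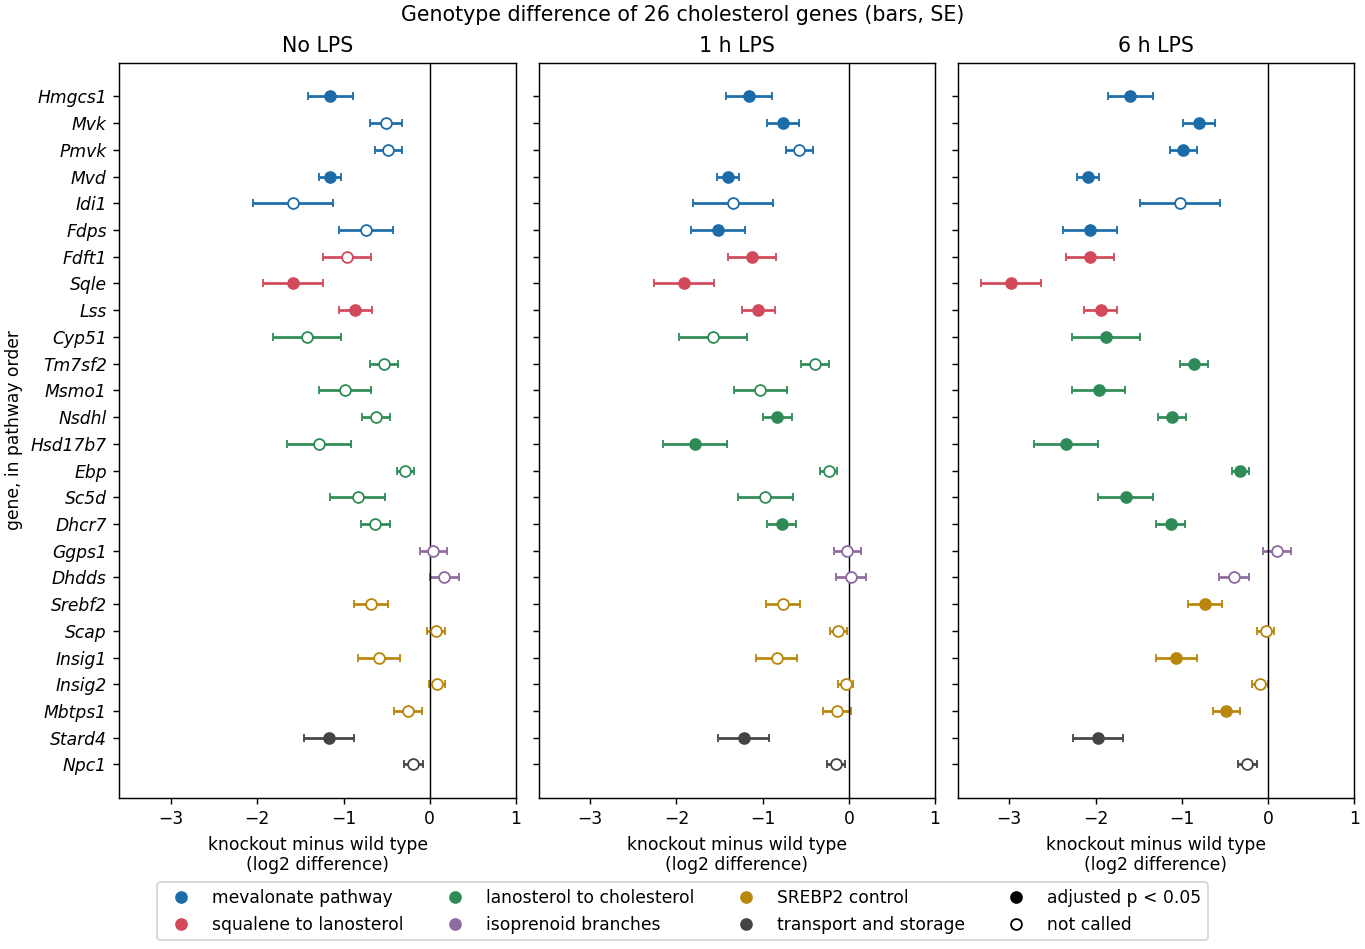
Log2 difference, knockout minus wild type (horizontal axis), for the 26 measured genes in pathway order without LPS and after 1 h and 6 h, with bars for the SE of the fit, colours for the role and filled points where the adjusted p was under 0.05. Filled points number 5, 11 and 20, all left of 0, and Ggps1, Scap and Insig2 stay near 0 at each time.

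The response to LPS was examined within each genotype. In wild type 1 h of LPS called 0 of 26 genes (0 at an unadjusted p under 0.05), against 0.301% of all genes in either direction. In knockout 1 h also called 0 (2 at an unadjusted p under 0.05), against 0.667% of all genes. With the replicate number as a fixed block within genotype, Fdps was called lower in knockout at 1 h (-0.72 ± 0.31 in the unblocked fit, adjusted p = 0.0161 with the block), against 0.532% of all genes called lower in that fit. The 1 h and 6 h comparisons of a genotype share their unstimulated arrays.

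After 6 h of LPS wild-type cells had 3 genes called lower, against 3.86% of all genes. They were Dhcr7 (-1.14 ± 0.17, 2.21-fold lower, adjusted p = 3.77e-04), Ebp (-0.49 ± 0.10, adjusted p = 0.00508) and Npc1 (-0.41 ± 0.11, adjusted p = 0.0268). The Npc1 call was lost without unstimulated wild-type array 1 or 3 or 6 h wild-type array 2 or 3 (adjusted p at most 0.129). The median change of the 26 genes in wild type was -0.0036, and the count of signs was even, with 13 negative. With the fixed replicate block Hsd17b7 was called higher in wild type (0.42 ± 0.37 unblocked, adjusted p = 0.0249 with the block), against 7.28% of all genes called higher there.

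In knockout cells 6 h of LPS lowered 14 of 26 genes and raised 0, against 20.2% of all genes called lower. The median change was -0.51, against 0.03 over all genes. Dhcr7 fell by 1.64 ± 0.17 (3.11-fold, adjusted p = 2.32e-06), Sqle by 1.30 ± 0.35 (2.47-fold, adjusted p = 0.0089) and Lss by 1.19 ± 0.19 (2.27-fold, adjusted p = 1.87e-04). Mvd fell by 0.86 ± 0.13 (adjusted p = 8.15e-05). Fdps, Stard4, Msmo1 and Fdft1 fell by 0.96, 0.96, 0.94 and 0.82. Smaller falls were called for Nsdhl (0.60), Ebp (0.53), Dhdds (0.52), Npc1 (0.45), Pmvk (0.43) and Scap (0.35). Srebf2 was -0.29 ± 0.20 and was not called (adjusted p = 0.278, and 0.017 with the fixed replicate block).

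The count of 14 in knockout depended on the arrays and on the block. It dropped to 5 without unstimulated knockout array 1, to 8 without unstimulated knockout array 2, to 7 without 6 h knockout array 3 and to 9 without 6 h knockout array 2. With the fixed replicate block 23 genes were called lower and 1 higher, against 25.5% of all genes called lower and 17% called higher. The gene called higher was Idi1 (0.99 ± 0.46 unblocked, adjusted p = 0.113, and 1.75e-04 with the block). When each 6 h array was set against the unstimulated array of the same number, 24 of 26 genes were lower in all 3 knockout pairs, and Idi1 and Ggps1 were higher in all 3. Of all genes, 33.3% were lower and 30.3% higher in all 3 knockout pairs. In wild type 6 genes of the set were lower and 4 higher in all 3 pairs, against 22% and 19.5% of all genes.

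**Figure D3:**
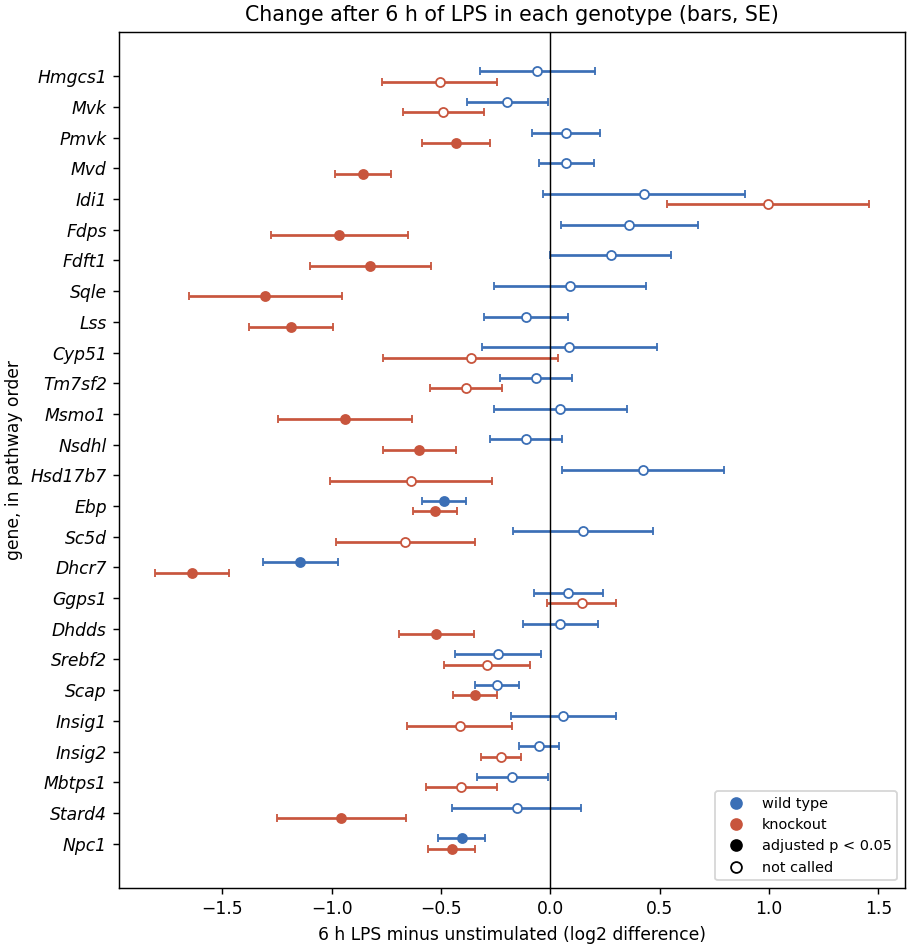
Log2 change from unstimulated to 6 h of LPS (horizontal axis) for the 26 genes in wild type (blue) and knockout (red), with bars for the SE of the fit and filled points where the adjusted p was under 0.05. In wild type the filled points are Dhcr7, Ebp and Npc1 and the signs are even, while most knockout points lie to the left and Idi1 lies to the right.

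The interaction term asked whether the response to LPS differed between genotypes. At 1 h it called 0 genes of the set (0 at an unadjusted p under 0.05), and 0% of all genes. At 6 h it called 2 lower and 0 higher, against 7.18% of all genes called lower, with 8 genes at an unadjusted p under 0.05. The count of 2 was near that share. Mvd fell 0.93 ± 0.18 further in knockout than in wild type (adjusted p = 0.00399) and Lss 1.07 ± 0.27 further (adjusted p = 0.0198). The largest interaction estimates were those of Sqle (-1.39 ± 0.49, adjusted p = 0.0846) and Fdps (-1.33 ± 0.44, adjusted p = 0.0697), neither called. The interaction was negative for 24 of 26 genes, the exceptions being Idi1 (0.56 ± 0.65) and Ggps1 (0.06 ± 0.22). Its median was -0.48, against 0.01 over all genes. The counts of signs and of unadjusted p were not made over all genes, so they describe the members only.

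With the fixed replicate block the 6 h interaction called 12 genes lower, against 15.2% of all genes. The 10 added genes were Hmgcs1, Fdps, Fdft1, Sqle, Msmo1, Nsdhl, Hsd17b7, Sc5d, Insig1 and Stard4, with Sqle at an adjusted p of 2.87e-04 and Fdps at 3.76e-04. Of single arrays, leaving out 6 h knockout array 1 gave 7 calls and leaving out unstimulated knockout array 3 gave 5. Without 6 h knockout array 3, unstimulated knockout array 1 or unstimulated wild-type array 1, Mvd alone was called. Lss then had an adjusted p of at most 0.0538.

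The knockout arrays were not alike among themselves. The mean log2 signal of the 26 genes in knockout arrays 1, 2 and 3 was 8.31, 8.01 and 7.71 without LPS, 8.25, 7.95 and 7.65 at 1 h, and 7.88, 7.37 and 7.07 at 6 h. In wild type it was 8.61, 8.72 and 8.78, then 8.61, 8.90 and 8.84, then 8.71, 8.73 and 8.53. Array 1 was the highest knockout array for 26 genes without LPS, 23 at 1 h and 24 at 6 h, and array 3 the lowest for 21, 21 and 20. The SD was larger in knockout than in wild type for 18 genes without LPS, 20 at 1 h and 23 at 6 h. The counts of array order and of SD were not made over all genes, so they cannot be called particular to the set. With the 3 knockout arrays numbered 3 left out together, 4, 9 and 18 genes were called lower.

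Other gene lists moved with the genotype and with these arrays. The 14 measured interferon-inducible antiviral genes had 13 called higher in knockout without LPS, 13 at 1 h and 14 at 6 h, where 1.8%, 1.5% and 10.6% of all genes were called higher. Rtp4, Ifit3 and Irf7 were 5.34 ± 0.33, 6.70 ± 0.43 and 5.09 ± 0.39 higher without LPS (adjusted p at most 1.51e-06). Their list mean in knockout arrays 1, 2 and 3 was 8.96, 9.67 and 10.63 without LPS, 8.72, 9.65 and 10.38 at 1 h, and 11.28, 11.30 and 11.29 at 6 h. In wild type it ranged from 5.23 to 5.52, 5.06 to 5.48 and 7.46 to 8.98. Among the knockout arrays without LPS and at 1 h, the array with the highest interferon list mean had the lowest mean of the cholesterol set. At 6 h the interferon means of the 3 knockout arrays lay within 11.28 to 11.30, while the cholesterol means kept their order. In wild-type cells the interferon list was higher after 6 h of LPS than before on every array, and the cholesterol mean ranged from 8.53 to 8.73 against 8.61 to 8.78 before.

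The 17 measured cell cycle genes had 0, 0 and 5 called lower in knockout, where 0.642%, 0.687% and 18.8% of all genes were called lower. Mcm3, Ccna2 and Ccnb2 were -1.02 ± 0.26, -2.26 ± 0.73 and -1.98 ± 0.68 at 6 h (adjusted p at most 0.0372). Their list mean in knockout arrays 1, 2 and 3 was 8.57, 8.30 and 7.14 without LPS, 8.49, 8.37 and 7.17 at 1 h, and 7.71, 7.26 and 6.36 at 6 h, against 7.88 to 8.66 over all wild-type arrays. Macrophage markers, read against the same shares and the 1.8%, 1.5% and 10.6% called higher, had 3, 2 and 3 of 13 called higher and 0, 1 and 2 called lower, with list means of 8.28, 8.56 and 9.19 in knockout without LPS, 8.34, 8.57 and 9.20 at 1 h, and 8.68, 8.79 and 9.25 at 6 h. In wild type these ran from 7.93 to 8.28, 8.02 to 8.40 and 8.40 to 8.52. The macrophage markers did not move as 1: without LPS their differences ran from -2.14 (Marco, not called) to 3.09 (Fcgr1). Their median was 0.20, and 5 of 13 were negative. Dendritic cell markers had 1, 0 and 4 of 10 called lower against those shares, with list means of 8.17 to 8.28 in knockout and 8.34 to 8.80 in wild type without LPS, 8.20 to 8.27 and 8.46 to 8.73 at 1 h, and 8.37 to 8.60 and 8.59 to 9.06 at 6 h. The part of the interferon, cell cycle and cell type lists in the cholesterol result was not tested.

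**Figure D4:**
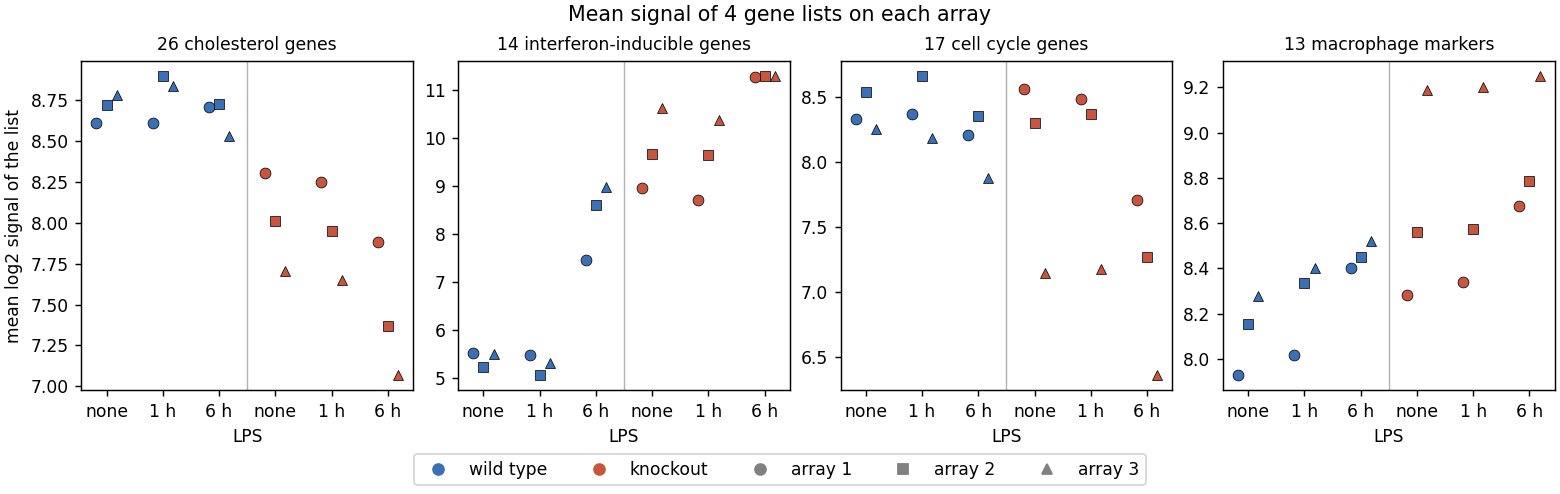
Mean log2 signal (vertical axes, one scale per panel) of the 26 cholesterol genes, 14 interferon-inducible genes, 17 cell cycle genes and 13 macrophage markers on each of the 18 arrays, with wild type in blue, knockout in red and marker shape for the array number. In the unstimulated knockout the cholesterol mean runs from 8.31 in array 1 to 7.71 in array 3, while the interferon mean runs from 8.96 to 10.63 and the macrophage mean from 8.28 to 9.19.

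Genes around the pathway were read from 5 further lists. The list of sterol branches and prenylation (14 measured) had 0 called without LPS and at 1 h, and 6 called lower at 6 h, where 18.8% of all genes were called lower. Among these Aacs, which makes acetoacetyl-CoA in the cytosol, was -0.69 ± 0.13 (adjusted p = 6.21e-04), Rdh11 was -0.73 ± 0.19 (adjusted p = 0.00886) and Rabggtb, a Rab prenyltransferase subunit, was -0.46 ± 0.13 (adjusted p = 0.013). Its median at 6 h was -0.35. The list of sterol sensing and reductase turnover (10 measured) had 0 called before 6 h, then 2 lower and 2 higher. The lower calls were at about the 18.8% share, and 10.6% of all genes were called higher at 6 h. The ubiquitin ligases Rnf139 and Rnf145, which act on sterol-control proteins, were 1.03 ± 0.09 (adjusted p = 5.74e-07) and 1.33 ± 0.23 (adjusted p = 4.04e-04) higher at 6 h, and the sterol-binding Pgrmc2 was -0.72 ± 0.11 (adjusted p = 9.92e-05).

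The SREBP1-linked fatty acid genes (12 measured) had 2 called lower without LPS, 2 at 1 h and 9 at 6 h, with 0 higher, against 0.642%, 0.687% and 18.8% of all genes called lower. Scd2, a stearoyl-CoA desaturase, was lower by 1.36 ± 0.24 without LPS (adjusted p = 0.00461) and by 3.14 ± 0.24 at 6 h (8.79-fold, adjusted p = 1.98e-07). The log2 difference of Fads1, a fatty acid desaturase, was -1.51 ± 0.12 at 6 h, and that of Lpin1, a phosphatidate phosphatase, was -1.86 ± 0.28. The median of the list at 6 h was -1.28, beside -1.09 for the cholesterol set and 0.04 for all genes.

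Of 10 oxysterol and bile acid genes, 1 was called lower without LPS and at 1 h, and 2 were called lower and 2 higher at 6 h, where 18.8% of all genes were called lower and 10.6% higher. Ch25h, which makes 25-hydroxycholesterol, a known inhibitor of SREBP processing, was 1.44 ± 0.24 higher at 6 h (2.71-fold, adjusted p = 2.39e-04). Without LPS it was 0.68 ± 0.24 and at 1 h 0.82 ± 0.24, neither called. Hsd3b7, a bile acid enzyme, was -0.72 ± 0.11, -0.52 ± 0.11 and -0.87 ± 0.11, called each time (adjusted p at most 0.0212), and the oxysterol-binding Osbp was -0.75 ± 0.11 at 6 h (adjusted p = 9.92e-05). Of 15 genes of cholesterol movement and efflux, 0 were called before 6 h and 3 were called lower and 3 higher at 6 h. For both lists the lower calls at 6 h were near the share over all genes. Stard3, a late endosome sterol carrier, was 1.28 ± 0.18 higher (adjusted p = 6.53e-05) and Mylip, the ligase that marks lipoprotein receptors for breakdown, was 0.90 ± 0.23 higher (adjusted p = 0.00718). Gramd1b, a carrier from the plasma membrane, was -0.51 ± 0.12 (adjusted p = 0.0034).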

How the data were processed

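Total RNA was measured on Affymetrix gene arrays. The deposited values are log2 signals made with RMA, per the submitters' processing notes. No version is given in the sources used here. The log2 base was taken from the values, which run from 1.5 to 13.71. Of 35556 probe sets, 21789 were listed with a single gene symbol, 1621 with several and 12146 with none, which left 19938 genes. Group means were fitted over all 18 arrays with limma 3.58.1 in R 4.3.3 (lmFit and eBayes, 12 residual degrees of freedom), for 3 genotype comparisons, 4 LPS responses and 2 interactions. P-values were adjusted by Benjamini-Hochberg over all genes, with calls made under 0.05. The script was tested on simulated data. The number of arrays, 3 a group, limits the precision.

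The members and gene lists were chosen with earlier results of these data known. All members were named. Values on every array were given for called members with the 3 largest genotype differences in their role and for called genes of the SREBP2 circuit, and up to 3 called genes were named per further list. Deviations from the group mean of arrays with the same number correlated within a genotype in 18 of 18 pairs (0.152 to 0.795). The main fit, which gave the counts stated first, had no block. The number was used as a block within genotype in alternative fits only. Between genotypes at the same LPS time 6 of 9 such pairs passed 0.1 (0.0247 to 0.172), against 0 of 18 pairs with different numbers (-0.17 to 0.0412). The highest of these correlations (0.172) passed the lowest within a genotype (0.152). Between genotypes at different LPS times, 7 of 18 same-number pairs passed 0.1 (-0.112 to 0.298), against 1 of 36 with different numbers (-0.284 to 0.103). The main fit did not take the number as a pairing across genotypes, and an alternative fit used it as a block there. Whether arrays of the same number were handled together across genotypes was not tested. Alternatives changed the arrays fitted, array weights, variance trend, a filter on genes with no group mean of 6 or more, the probe sets of a gene, the scaling, the block and the arrays left out. The level of the targeted gene is not reported here.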

Additional observations from a re-analysis of the deposited data

Results flagged for a closer look

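The response to 6 h of LPS was called different between genotypes for 2 genes of the set, by the interaction term of the fit. Both were called lower, where 7.18% of all genes were. The count of 2 was near that share, so it does not single out the set. For Mvd, the mevalonate decarboxylase, the knockout response minus the wild-type response was -0.93 ± 0.18 (SE, limma adjusted p = 0.00399), from a change of -0.86 in knockout and 0.07 in wild type. It was called in all 27 alternative fits, with an adjusted p of at most 0.013. For Lss, lanosterol synthase, it was -1.07 ± 0.27 (adjusted p = 0.0198), from -1.19 in knockout and -0.11 in wild type. It was called in 24 of the 27 alternative fits, with an adjusted p of at most 0.0538. Each group held 3 arrays, so no test for a single array far from its group was made.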

How the results depend on the processing

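The genotype count at 6 h (20), the wild-type counts at 1 h (0) and 6 h (3) and the 1 h interaction count (0) stayed within 1.5 times under each alternative run. Leaving out 1 array in turn gave 1 to 11 genes without LPS (5 with all arrays), 3 to 15 at 1 h (11), 17 to 21 at 6 h (20), 5 to 17 for 6 h of LPS in knockout (14) and 1 to 7 for the 6 h interaction (2). Fitting only the groups compared gave 2 genes without LPS, 7 at 1 h and 6 for 6 h of LPS in knockout. Array weights gave 18 at 1 h and 5 for the 6 h interaction. Leaving out the 3 knockout arrays numbered 3 gave 5 for that interaction. The random replicate block within genotype (consensus correlation 0.272) gave 11 without LPS and 6 for the 6 h interaction, and the fixed replicate block gave 1 for 1 h of LPS in knockout, 24 for 6 h and 12 for the 6 h interaction. A block by number across genotypes, where arrays of the same number correlated at -0.112 to 0.298, gave 13 without LPS. The blocks added calls and removed none of the members' calls. Over all genes, calls without LPS numbered 487, against 153 with only the groups compared and 924 with the block by number. At 1 h they numbered 436, against 257 with only the groups compared and 929 with array weights. For the 6 h interaction they numbered 2031, against 3268 with array weights, 4347 with the fixed block and 3835 with the random block. The causes were not tested. No member's call changed direction. The array signal over background was not analysed here, so dim values such as Lss at 4.77 may understate a fold.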

Other observations

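Of the 15 genes of cholesterol movement and efflux, 6 h of LPS called 4 lower and 1 higher in wild type, against 3.86% and 4.23% of all genes. In knockout it called 6 lower and 4 higher, against 20.2% and 12%. Abca1 and Abcg1 of this list, and Ch25h and Scd2 of other lists, were looked up after the data were seen. Abca1, which exports cholesterol to lipid-poor apolipoproteins, rose after 6 h by 1.45 ± 0.43 (SE) in wild type (limma adjusted p = 0.0458) and by 1.23 ± 0.43 in knockout (adjusted p = 0.0365), and the difference between these responses was -0.22 ± 0.60 (adjusted p = 0.855). The wild-type call was made in 16 of 27 alternative fits and the knockout call in 21. Abcg1, the exporter to mature lipoprotein particles, fell by 1.30 ± 0.12 in wild type and by 0.84 ± 0.12 in knockout (adjusted p = 6.2e-05 in the latter), and the interaction of 0.46 ± 0.17 had an adjusted p of 0.0979, and of 0.0112 with the fixed replicate block. Ch25h rose by 1.34 ± 0.24 in knockout (adjusted p = 3.74e-04) and was 0.58 ± 0.24 in wild type (adjusted p = 0.178, and 0.0257 with the block). Scd2 fell by 2.20 ± 0.24 in knockout and was -0.42 ± 0.24 in wild type, with an interaction of -1.78 ± 0.34 (adjusted p = 0.00396).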
